A study of Homo sapiens with 6 samples.

Results

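Surfactant and alveolar secretory genes were described in H2087-LCC cells held under TGFβ receptor inhibition or exposed to TGFβ. The 10 genes were taken by symbol from the table of normalized counts, out of 21293 genes in all, and comprise *SFTPA1*, *SFTPA2*, *SFTPB*, *SFTPD*, *ABCA3*, *LAMP3*, *NAPSA*, *SLC34A2*, *SCGB3A2* and *DMBT1*. Pulmonary surfactant is a film of phospholipid and protein that lowers surface tension in the alveolus. Alveolar type 2 cells assemble it in lamellar bodies, which are lysosome-related organelles, and release it by exocytosis. Its hydrophobic protein SP-B spreads the lipid, and its collectins SP-A and SP-D bind carbohydrates on microbes. Many lung adenocarcinomas (LUAD) keep the expression of these genes, and several of their products serve as markers of lung origin.

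H2087-LCC are latency competent cancer cells, a population obtained by selection in mice from H2087, an established human LUAD cell line. RNA-seq was performed on 2 libraries of each of 3 groups: cells given SB505124 (SB), which blocks the type I receptor for TGFβ, for 3 days, cells given TGFβ for 3 days and cells given TGFβ for 7 days. The study describes the libraries of a group as technical replicates, so the spread between them may leave out the variation between cultures. All groups are one cell population, no untreated group was sequenced, and SB was sequenced at 3 days only, so treatment and time in culture cannot be told apart in the comparison of 7 days of TGFβ with SB. Values are read counts per gene after normalization by library size, and the library totals lay between 34306283 and 36340734. The log2 differences are differences of the mean of log2(normalized count + 1), which understates the change of genes with low counts. In these bulk libraries, fewer cells with a transcript and less transcript per cell cannot be told apart.

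The 10 genes were chosen by their values in these same libraries, namely their lower level under TGFβ and the gap between the SB libraries. The values that follow are therefore a description. No p-value is given for them, and where a count past the threshold of the fit across all genes is given, it describes the choice of genes. The SB libraries are given separately throughout, because they lay far apart for most of the 10 genes. A mean of at least 10 normalized counts, which a gene needed to enter the fit across all genes, was reached by 8 of the 10 genes. Of these, 5 (*SFTPA1*, *SFTPA2*, *NAPSA*, *SCGB3A2* and *DMBT1*) reached it only through the SB libraries, while *SFTPB*, *ABCA3* and *LAMP3* also had a mean of at least 10 over the 4 TGFβ libraries. *SFTPD* and *SLC34A2* did not enter the fit.

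In SB the cells carried markers of their lineage. Of the 7 epithelial and LUAD markers listed, 4 were lower and 1 higher at 7 days of TGFβ than in SB (all genes tested, 26.9% lower and 27.7% higher). *EPCAM*, an epithelial adhesion molecule, was at 10180 and 9106 normalized counts in SB, and *NKX2-1*, the lung lineage transcription factor, was at 2784 and 2908. *SFTPC*, the surfactant gene most particular to type 2 cells, was at 1 and 0 normalized counts in SB and at 0 in the 4 TGFβ libraries. *SCGB1A1*, the main secretoglobin of airway club cells, was at 0 in all 6 libraries. The name of the gene group therefore describes its genes, and H2087-LCC cells showed some of the type 2 markers and lacked others.

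**Figure D1:**
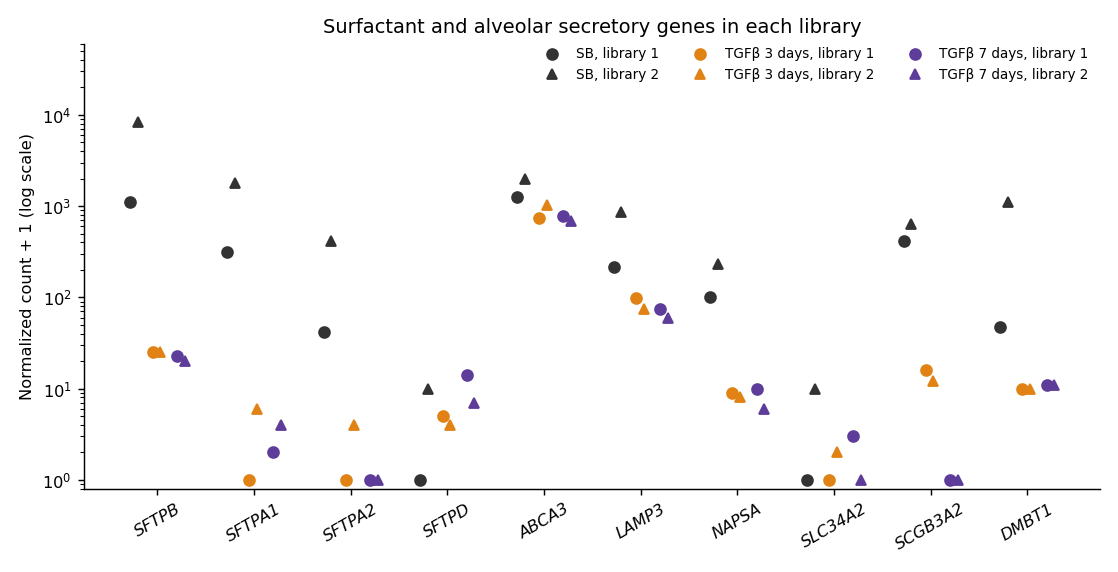
Normalized counts plus 1 (log axis) of the 10 genes in each library, with circles for library 1 and triangles for library 2 of SB (black), TGFβ 3 days (orange) and TGFβ 7 days (purple). Both SB libraries lie above all 4 TGFβ libraries for 8 genes, the exceptions being *SFTPD* and *SLC34A2*, and SB library 2 lies above SB library 1 for all 10.

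*SFTPB*, which encodes SP-B, had 1104 and 8273 normalized counts in the SB libraries, 24 and 24 after 3 days of TGFβ, and 22 and 19 after 7 days. The groups did not overlap: SB library 1 was 46.0 times the highest TGFβ library, and SB library 2 was 345 times. The log2 difference from SB was -6.92 (SE 0.63) at 3 days and -7.14 (SE 0.63) at 7 days. With the SB libraries taken one at a time, the 3-day difference of *SFTPB* was -5.47 against library 1 and -8.37 against library 2. The gene lies at chr2:85884437-85895864 (GRCh37, minus strand).

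*SFTPA1* and *SFTPA2* are neighbors on chromosome 10 and encode the chains of SP-A. *SFTPA1* had 311 and 1799 normalized counts in SB, 0 and 5 at 3 days, and 1 and 3 at 7 days. *SFTPA2* had 41 and 410 in SB, 0 and 3 at 3 days, and 0 in both libraries at 7 days. Every SB library of either gene was above every TGFβ library, by 62.2 and 360 times the highest TGFβ library for *SFTPA1* and by 13.7 and 137 times for *SFTPA2*. The TGFβ libraries of both genes were so near to 0 that no order among them could be read. With both 7-day libraries at 0 and a floor of 3 normalized counts per library, *SFTPA2* was at least 75.2-fold lower at 7 days than the SB mean, at least 13.7-fold lower than SB library 1 and at least 137-fold lower than SB library 2. The fitted log2 differences at 3 days were -8.26 (SE 0.85) for *SFTPA1* and -6.04 (SE 0.94) for *SFTPA2*.

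The split of reads between the SP-A genes is uncertain. Of the 2549 distinct windows of 50 bases in the annotated *SFTPA1* transcripts, 583 (22.9%) also occurred in *SFTPA2* transcripts, and these make up 21.0% of the 2781 windows of *SFTPA2*. Only reads mapped to 1 place were counted, so reads that lie wholly within shared sequence may be missing from both genes. *SFTPA1* spans chr10:81370695-81375211 on the plus strand and *SFTPA2* spans chr10:81315608-81320163 on the minus strand (GRCh37).

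*SFTPD*, the gene of the collectin SP-D, stayed at the lower limit of detection. It had 0 and 9 normalized counts in SB, 4 and 3 at 3 days, and 13 and 6 at 7 days. The groups overlapped, and the highest library was at 7 days of TGFβ, unlike for the other surfactant proteins. *SFTPD* is the only one of the 10 genes in which SB library 2 was not the highest of the 6 libraries.

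The sequence before the start site is shown for the surfactant protein genes with high counts in SB, for *SCGB3A2* and *DMBT1*, which had the smallest and the largest gap between the SB libraries of the 8 genes in the fit, because NKX2-1 and FOXA factors are known to bind near surfactant genes. RefSeq start sites on GRCh38.p14 were found for 9 of the 10 genes, in 13 entries, and *LAMP3* had no entry. Each line gives the 250 bases upstream of a start, 5′ to 3′ in the direction of transcription, from chr2:85668200-85668449 (minus strand) for *SFTPB*, chr10:79610689-79610938 (plus) for *SFTPA1*, chr10:79560408-79560657 (minus) for *SFTPA2*, chr5:147878461-147878710 (plus) for *SCGB3A2* and chr10:122560504-122560753 (plus) for *DMBT1*. Capitals mark matches on either strand to GCNCTNNAG, a form of the NKX2-1 motif, or to TGTTTNC, a form of the FOXA motif.
SFTPB: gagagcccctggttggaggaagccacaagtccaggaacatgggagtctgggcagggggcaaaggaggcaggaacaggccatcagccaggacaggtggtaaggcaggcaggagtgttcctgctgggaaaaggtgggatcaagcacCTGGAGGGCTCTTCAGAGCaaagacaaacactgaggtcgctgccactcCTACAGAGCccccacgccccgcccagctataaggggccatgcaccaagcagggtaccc
SFTPA1: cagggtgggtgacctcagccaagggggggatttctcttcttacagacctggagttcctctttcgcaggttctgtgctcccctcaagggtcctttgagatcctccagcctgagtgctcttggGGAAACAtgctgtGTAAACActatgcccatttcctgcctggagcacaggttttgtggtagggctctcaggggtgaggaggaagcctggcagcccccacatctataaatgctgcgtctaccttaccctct
SFTPA2: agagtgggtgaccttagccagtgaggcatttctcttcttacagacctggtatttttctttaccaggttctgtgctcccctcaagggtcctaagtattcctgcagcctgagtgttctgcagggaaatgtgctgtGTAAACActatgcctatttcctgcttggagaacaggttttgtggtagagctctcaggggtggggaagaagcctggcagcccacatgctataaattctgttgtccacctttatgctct
SCGB3A2: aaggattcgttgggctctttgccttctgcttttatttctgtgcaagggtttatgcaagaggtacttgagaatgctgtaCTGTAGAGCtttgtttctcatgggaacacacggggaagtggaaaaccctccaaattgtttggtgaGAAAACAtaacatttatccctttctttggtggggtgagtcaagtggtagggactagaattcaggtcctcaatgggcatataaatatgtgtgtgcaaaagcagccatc
DMBT1: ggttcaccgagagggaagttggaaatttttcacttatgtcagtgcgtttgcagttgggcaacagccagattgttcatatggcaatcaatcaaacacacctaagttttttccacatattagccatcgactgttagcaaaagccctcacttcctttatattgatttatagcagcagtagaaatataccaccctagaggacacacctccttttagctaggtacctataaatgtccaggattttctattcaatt

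The *SFTPB* window held 4 matches to the NKX2-1 letters, 3 of which overlap in the longest run of capitals. The *SCGB3A2* window held 1 match to each motif, the *SFTPA1* window held 2 FOXA matches and the *SFTPA2* window held 1. The *DMBT1* window held none, which says only that these letters are not in those bases. *SFTPB* and *SFTPA2* each had another entry, which is not shown. The other *SFTPB* window (chr2:85668742-85668991) held 1 match to each motif, and the other *SFTPA2* window (chr10:79559872-79560121) held none. Over the 13 entries of the 9 genes, 3 held the NKX2-1 letters and 5 the FOXA letters, beside 14.3% and 15.5% of 35116 windows of the same length before all RefSeq start sites in the table. The *SFTPA1* and *SFTPA2* windows were identical at 214 of 255 aligned positions (83.9%). A match describes letters only, and binding was not measured.

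*ABCA3*, the transporter that loads phospholipid into lamellar bodies, showed the smallest difference and kept the highest level under TGFβ. It had 1252 and 2007 normalized counts in SB, 745 and 1025 at 3 days, and 782 and 693 at 7 days. The groups of SB and TGFβ did not overlap, but SB library 1 was only 1.22 times the highest TGFβ library. The log2 difference of *ABCA3* was -0.86 (SE 0.20) at 3 days and -1.11 (SE 0.20) at 7 days, and against SB library 1 alone it was -0.52 at 3 days.

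*LAMP3*, a lysosomal membrane glycoprotein of lamellar bodies that is also made by mature dendritic cells, had 216 and 872 normalized counts in SB, 97 and 73 at 3 days, and 73 and 59 at 7 days. SB library 1 was 2.23 times and SB library 2 was 8.99 times the highest TGFβ library. The log2 difference was -2.35 (SE 0.46) at 3 days and -2.71 (SE 0.46) at 7 days. Against SB library 1 alone the 3-day difference of *LAMP3* was -1.35.

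*NAPSA* encodes napsin A, an aspartic protease that takes part in the maturation of SP-B and is a common marker of LUAD. It had 99 and 234 normalized counts in SB, 8 and 7 at 3 days, and 9 and 5 at 7 days. The TGFβ libraries were alike at a few counts each, and the SB libraries were 11 and 26.0 times the highest of them. The log2 difference of *NAPSA* was -4.18 (SE 0.43) at 3 days and -4.31 (SE 0.43) at 7 days.

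*SLC34A2*, the sodium-phosphate cotransporter of type 2 cells, was barely detected. It had 0 and 9 normalized counts in SB, 0 and 1 at 3 days, and 2 and 0 at 7 days. Only SB library 2 was above the floor of 3 counts, by 3.0 times, and the groups overlapped.

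*SCGB3A2*, a small secretoglobin of airway and alveolar secretory cells, was the gene with the most even SB libraries and the clearest difference between the TGFβ times. It had 414 and 642 normalized counts in SB, 15 and 11 at 3 days, and 0 in both libraries at 7 days. The 3 groups did not overlap. SB was 40.6 times the 3-day mean, and relative to the floor of 3 counts per library *SCGB3A2* was at least 176-fold lower at 7 days than in SB, and at least 4.33-fold lower at 7 days than at 3 days. The log2 difference at 3 days was -5.22 (SE 0.36), and against the SB libraries one at a time it was -4.90 and -5.54.

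*DMBT1*, a secreted scavenger receptor glycoprotein that binds SP-A and SP-D, was the gene with the least even SB libraries. It had 46 and 1122 normalized counts in SB, 9 and 9 at 3 days, and 10 and 10 at 7 days. SB library 1 was 4.6 times and SB library 2 was 112 times the highest TGFβ library. The fitted log2 difference of *DMBT1*, -4.52 (SE 0.99) at 3 days, lies between -2.23 against SB library 1 and -6.81 against SB library 2.

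**Figure D2:**
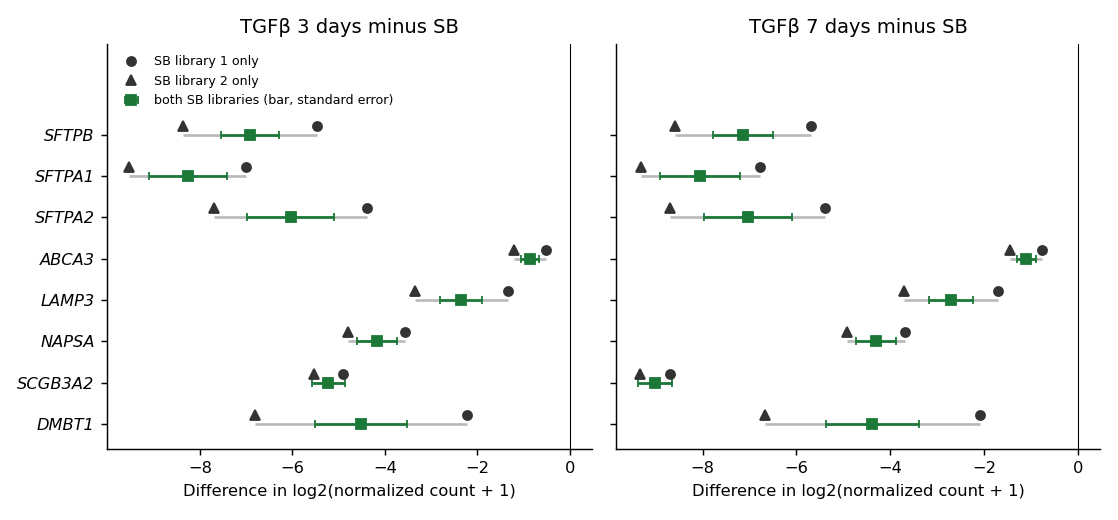
Differences in log2(normalized count + 1) between TGFβ at 3 days (left) or 7 days (right) and SB for the 8 genes in the fit. Green squares use both SB libraries with their standard error, circles use SB library 1 only and triangles SB library 2 only; all lie below 0, from -0.52 for *ABCA3* against library 1 at 3 days to -9.52 for *SFTPA1* against library 2.

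The 8 genes in the fit were lower than SB past the threshold of limma (adjusted p under 0.05) at 3 days and at 7 days, which the choice of the genes and, for 5 of them, the filter passed through SB had built in. Beside that count, 29.0% of the 14395 genes tested differed from SB at 3 days (14.0% lower, 14.9% higher) and 54.5% at 7 days (26.9% lower, 27.7% higher). Nothing is read from the counts, and both comparisons share the SB libraries. The median log2 difference of the 8 genes was -4.87 at 3 days and -5.71 at 7 days, beside -0.02 and -0.00081 over all genes tested. Both SB libraries were above all 4 TGFβ libraries in 8 of the 10 genes, as they were in 25.1% of all genes tested. SB library 2 was the highest of the 6 libraries in 9 of the 10 genes, as it was in 18.4% of all genes tested. The 3-day call of *ABCA3* was lost without SB library 2 (-0.52) and without 3-day library 1 (-0.63).

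Between 3 and 7 days of TGFβ, *SCGB3A2* had a log2 difference of -3.79 (SE 0.36), from 15 and 11 to 0 and 0 normalized counts. It passed the threshold of limma in this comparison, where 33.2% of all genes tested did (16.2% lower, 17.0% higher), but it had entered the fit only through its SB libraries, so nothing is read from the call. The differences of the other 7 genes in the fit lay between -1.0 for *SFTPA2*, at 3 counts or fewer, and 0.21 for *SFTPA1*, at 5 or fewer. For *ABCA3*, *LAMP3* and *SFTPB*, which had the most counts under TGFβ, they were -0.25 (SE 0.20), -0.35 (SE 0.46) and -0.22 (SE 0.63), and none of these 3 passed the threshold, which does not show that their levels were equal.

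Relative to annotated exon length, the order of the genes changed with the SB library. The per-length level is the normalized count per kilobase of exon, taken over all annotated transcripts of a gene. The transcripts made in these cells were not identified, so genes can be compared with one another only roughly. In SB library 1 *SCGB3A2* was highest at 385 per kilobase, followed by *SFTPB* at 269, *ABCA3* at 160 and *SFTPA1* at 127. In SB library 2 *SFTPB* was highest at 2013 per kilobase, followed by *SFTPA1* at 734, *SCGB3A2* at 597 and *ABCA3* at 257. The first 4 places thus held the same 4 genes in a different order. *SCGB3A2* and *SFTPB* lay above *ABCA3* in both SB libraries with no overlap, whereas *SCGB3A2* and *SFTPB* overlapped each other, and *SFTPA1* overlapped all of them. Below them, *LAMP3* was at 57.1 and 230 per kilobase, *NAPSA* at 27.6 and 65.3, *SFTPA2* at 15.2 and 152 and *DMBT1* at 4.91 and 120.

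After 3 days of TGFβ the per-length order was clearer. *ABCA3* was highest, with a mean of 113 per kilobase, then *LAMP3* at 22.5, *SCGB3A2* at 12.1 and *SFTPB* at 5.84. After 7 days *ABCA3* was at 94.5 per kilobase, *LAMP3* at 17.4, *SFTPB* at 4.99 and *SCGB3A2* at 0. *ABCA3* and *LAMP3* did not overlap in either group, and *ABCA3*, *LAMP3* and *SFTPB* kept one order at both times.

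The gap between the SB libraries ran in the same direction in all 10 genes, with library 2 higher, as it was in 48.0% of all genes tested. SB library 2 was 24.4 times SB library 1 for *DMBT1* (95% interval 18.2 to 33.5), 10 times for *SFTPA2* (7.24 to 14.1), 7.49 times for *SFTPB* (7.04 to 7.99) and 5.78 times for *SFTPA1* (5.13 to 6.55). It was 4.04 times for *LAMP3* (3.47 to 4.71), 2.36 times for *NAPSA* (1.86 to 3.02), 1.60 times for *ABCA3* (1.49 to 1.72) and 1.55 times for *SCGB3A2* (1.37 to 1.76). These exact intervals take normalized counts as reads and cover counting error only.

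The same gap was small over the table as a whole. Its median over all genes tested was -0.0057 on the log2 scale, and 95% of genes lay between -0.58 and 0.97, whereas the 8 genes had a median of 2.27. The pair was more than 1 apart on the log2 scale in 6 of the 8 genes, and in 2.76% of all genes tested (library 2 higher in 2.08%, library 1 higher in 0.674%). *DMBT1* had the 2nd largest gap in favor of library 2 of all 14395 genes, *SFTPA2* the 7th, *SFTPB* the 11th, *SFTPA1* the 19th and *LAMP3* the 34th, while *NAPSA*, *ABCA3* and *SCGB3A2* ranked 175, 746 and 837. The gap was among the values that chose the genes, so their ranks are a description.

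**Figure D3:**
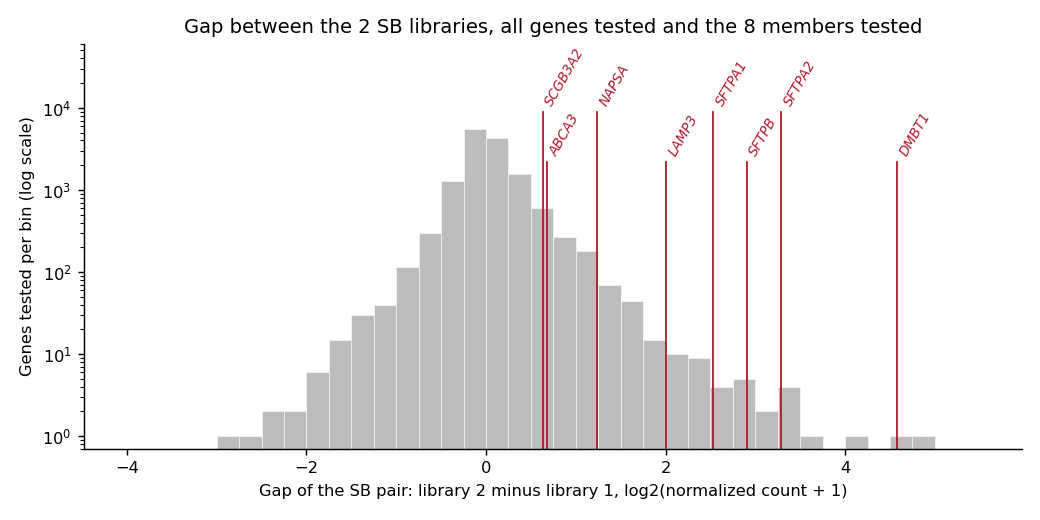
Number of genes tested (log axis) by the gap of the SB pair, library 2 minus library 1, in log2(normalized count + 1). Grey bars are all 14395 genes tested and red lines the 8 surfactant and secretory genes, from 0.63 for *SCGB3A2* to 4.58 for *DMBT1*, all to the right of the median gene at -0.0057.

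In the TGFβ pairs the 8 genes had no common direction. In the 3-day pair library 2 was higher for 3 of 8, with *SFTPB* and *DMBT1* equal. The genes more than 1 apart in this pair were *SFTPA1* and *SFTPA2*, at 5 counts or fewer. In the 7-day pair library 2 was higher for 1 of 8, *SFTPA1*, at 5 counts or fewer. It was lower for *SFTPB*, *ABCA3*, *NAPSA* and *LAMP3*, and *SFTPA2*, *SCGB3A2* and *DMBT1* were equal. No gene was more than 1 apart in the 7-day pair. Over all genes tested, 0.820% were more than 1 apart in the 3-day pair, with library 2 higher in 0.577% and library 1 in 0.243%, and 0.875% in the 7-day pair, with library 2 higher in 0.278% and library 1 in 0.597%.

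Other genes with a large SB gap are given for comparison, out of those whose mean was 100 or more. The largest gaps in favor of SB library 2 were in *IFI27* (40 and 430 normalized counts in SB) and *IFI44L* (47 and 383), which are interferon-stimulated genes, *CFB* (208 and 1329), a complement factor, *FAM20A* (100 and 559), a secretory pathway pseudokinase, and *DHRS3* (175 and 888), a retinal reductase. Gaps in favor of SB library 1 were smaller, and among the largest were those of *PAX8-AS1* (49 and 16), *KLHDC8A* (74 and 28), *ANKRD1* (258 and 108) and *FLRT3* (83 and 37). The part of any cause in the gap between the SB libraries was not tested.

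Across the 6 libraries the 8 genes had one profile. Pearson's r of log2 values lay between 0.78 and 0.99 over the 28 pairs of genes, with a median of 0.94. All pairs share the same 6 libraries, and a difference between SB and TGFβ common to them, so r is given as a description. *SFTPB* and *SFTPA2* were nearest to the mean profile of the 8 genes (r = 0.993 each), and *SCGB3A2* was farthest (r = 0.917).

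Among 11383 other genes with a mean of at least 100, 280 had r above 0.95 with that mean profile. The highest were *SVIL*, an actin-binding protein (0.999), *B3GNT6*, a glycosyltransferase of mucin-type glycans (0.998), *ATP11A*, *HAS3*, *TBC1D14*, *CEBPD* (0.996), *TAP1*, *EPN2*, *GRB7* and *PSMB8* (0.995). The gene at the head of this order moved far less than the surfactant genes: *SVIL* had 5205 and 7083 normalized counts in SB, 3386 and 3642 at 3 days, and 3387 and 3289 at 7 days. The lowest r was that of *NQO1*, a quinone reductase (-0.998), which had 20095 and 17222 in SB, 26392 and 25083 at 3 days, and 26896 and 27731 at 7 days, followed by *WSB2*, *FKBP1A*, *REXO2* and *TES*. Likeness here is one of shape over 6 libraries and not of size.

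For the lists that follow, the counts stand beside the shares of all genes tested that passed the threshold, which were 14.9% higher and 14.0% lower at 3 days (29.0% together), and 27.7% higher and 26.9% lower at 7 days (54.5% together). The list of lipid synthesis and lamellar body genes had 20 members in the fit. At 3 days 4 were higher than SB, 2 were lower and 14 did not pass the threshold, with a median log2 difference of 0.00055, and at 7 days 8 were higher and 5 lower, with a median of 0.12. The called share at 3 days was near that of all genes (29.0%). None of the 20 had SB libraries more than 1 apart. The lower genes at 3 days were *LPCAT1*, which makes the dipalmitoyl phosphatidylcholine of surfactant, and *PLIN2*, a lipid droplet coat protein. *LPCAT1* fell from 19014 and 20746 normalized counts in SB to 4547 and 4519 at 3 days and 2821 and 2903 at 7 days (log2 difference at 3 days -2.13, SE 0.08, limma adjusted p = 5.43e-09). *PLIN2* fell from 2720 and 2786 to 1154 and 1096 at 3 days (-1.29, SE 0.09, limma adjusted p = 1.08e-06). *SCD*, the stearoyl-CoA desaturase, had 32604 and 49078 in SB and 47481 and 44904 at 3 days, and rose to 82511 and 86662 at 7 days (0.87 from 3 to 7 days, SE 0.14, limma adjusted p = 0.00115).

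The list of genes for surfactant protein processing and clearance had 9 members in the fit, of which 3 were higher and 3 lower at 3 days, with a median of -0.09, and 5 higher and 2 lower at 7 days, with a median of 0.30 (all genes, 29.0% called at 3 days and 54.5% at 7 days). *CTSH*, a cathepsin that processes SP-B and SP-C, fell from 270 and 365 normalized counts in SB to 115 and 103 at 3 days (-1.52, SE 0.19, limma adjusted p = 7.76e-05). *GPR116*, a receptor that limits surfactant pools, fell from 1209 and 1601 to 481 and 471 (-1.55, SE 0.14, limma adjusted p = 7.24e-06). *LRP1*, an endocytic receptor, rose from 850 and 1511 in SB to 2662 and 4088 at 3 days and 10319 and 8357 at 7 days (1.54 at 3 days, SE 0.24, limma adjusted p = 0.000461).

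Of the other type 2 markers, 9 of 18 were in the fit, and *LPCAT1* is also on the lipid list. At 3 days 6 were lower and 1 higher than SB, with a median of -2.13, and at 7 days 6 were lower and 3 higher, with a median of -1.84 (all genes, 14.0% lower at 3 days and 26.9% at 7 days). *CEACAM6*, an adhesion molecule of the cell surface, fell from 6573 and 9563 normalized counts in SB to 270 and 262 at 3 days and 127 and 163 at 7 days (-4.89 at 3 days, SE 0.17, limma adjusted p = 2.9e-09). *CD74*, the MHC class II invariant chain, had uneven SB libraries, at 249 and 1236 (gap 2.31 on the log2 scale), and fell to 48 and 53 at 3 days (-3.43, SE 0.51, limma adjusted p = 0.000326), with -2.28 without SB library 2 and -4.59 without SB library 1. *KCNJ15*, a potassium channel, went the other way, from 0 and 3 in SB to 27 and 16 at 3 days and 81 and 100 at 7 days. Its 3-day difference was 3.45 (SE 0.57), with 2.45 without SB library 1 and 4.45 without SB library 2. *KCNJ15* entered the fit only through its TGFβ libraries, so nothing is read from its calls against SB, which are among those counted as higher. SB gaps above 1 in favor of library 2 were found in 4 of these 9 genes, and in 2.08% of all genes tested. The 4 include *KCNJ15*, at 0 and 3 normalized counts in SB, where the gap is too near to 0 counts to be read.

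Markers of type 1 cells, the flat cells of the alveolus, had no common direction: of 10 in the fit, 3 were higher and 3 lower at both 3 and 7 days (all genes, 29.0% and 54.5% called). *HOPX*, a homeodomain protein, fell from 3819 and 3854 normalized counts in SB to 271 and 255 at 3 days and 34 and 38 at 7 days (-3.86 at 3 days, SE 0.14, limma adjusted p = 2.9e-09). The SB libraries of *HOPX* were nearly equal, and none of the 10 genes had an SB gap above 1. *CAV2*, a caveolin, rose from 1845 and 1233 to 3022 and 2688 at 3 days (0.92, SE 0.15, limma adjusted p = 0.000811). *AQP5*, a water channel, and *PDPN*, which mark type 1 cells, were at or near 0 in most libraries, with *AQP5* at 12 and 34 in SB and at 0 in the TGFβ libraries. *AGER*, another type 1 marker, was detected in every library. It had 203 and 255 normalized counts in SB, 122 and 162 at 3 days, and 232 and 225 at 7 days.

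Of the airway secretory markers, 6 of 18 were in the fit, and 4 were lower at 3 days with none higher (median -1.68), against 2 lower at 7 days (median -1.15). Over all genes 14.0% were lower at 3 days and 26.9% at 7 days, so that the 2 of 6 at 7 days are near the share of all genes. *AGR2*, a disulfide isomerase of mucin-producing cells, fell from 2155 and 2516 normalized counts in SB to 631 and 549 at 3 days and 178 and 139 at 7 days (-1.98 at 3 days, SE 0.15, limma adjusted p = 1.3e-06). *CEACAM5* was at 59 and 254 in SB, 0 in both 3-day libraries and 1 in both 7-day libraries. Its 3-day difference was -5.91 without SB library 2 and -7.99 without SB library 1. *CEACAM5* entered the fit only through its SB libraries, so nothing is read from its calls, which are among those counted as lower. *LCN2*, a siderophore-binding protein, had 21 and 98 in SB and 12 and 7 at 3 days (-2.19, SE 0.60, limma adjusted p = 0.0171), which no longer passed without SB library 2 (-1.11, adjusted p = 0.142) and without 3-day library 2 (-1.84, adjusted p = 0.0624). The SB gap was above 1 in favor of library 2 in 4 of the 6 genes, beside 2.08% of all genes tested.

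Regulators known for surfactant gene transcription were also described. Of 19 in the fit, 7 were lower and 1 higher at 3 days, with a median of -0.10. At 7 days 8 were lower and 6 higher, with a median of 0.04 (all genes, 14.0% lower at 3 days, and 26.9% lower and 27.7% higher at 7 days). Those counted as higher at 7 days include *ELF5*, at 3 and 4 normalized counts in SB and 13 and 27 at 7 days. *ELF5* entered the fit only through its TGFβ libraries, so nothing is read from its call against SB. *NKX2-1* fell from 2784 and 2908 normalized counts in SB to 712 and 748 at 3 days and 853 and 857 at 7 days (-1.96 at 3 days, SE 0.10, limma adjusted p = 4.48e-08). *FOXA2*, a forkhead factor of lung epithelium, fell from 490 and 642 to 75 and 99 at 3 days and 68 and 75 at 7 days (-2.69, SE 0.20, limma adjusted p = 1.41e-06). The SB libraries of *NKX2-1* differed by 0.06 on the log2 scale while those of *SFTPB* differed by 2.90.

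The regulators with an SB gap above 1, which 2.08% of all genes tested had in favor of library 2, were *ELF3* and *CEBPD*. *ELF3*, an epithelial ETS factor, fell from 1359 and 4388 normalized counts in SB to 66 and 71 at 3 days and 124 and 118 at 7 days (-5.14, SE 0.38, limma adjusted p = 1.18e-06), with -4.29 without SB library 2 and -5.98 without SB library 1. *CEBPD*, a C/EBP factor induced by glucocorticoids, fell from 231 and 478 to 94 and 90 at 3 days and 84 and 79 at 7 days (-1.84, SE 0.28, limma adjusted p = 0.000364), with -1.32 without SB library 2 and -2.37 without SB library 1. *SOX9*, a factor of the distal lung bud, fell from 1835 and 2305 to 1233 and 1365 at 3 days and reached 2591 and 2769 at 7 days, a rise of 1.05 between the TGFβ times (SE 0.12, limma adjusted p = 9.31e-05).

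**Figure D4:**
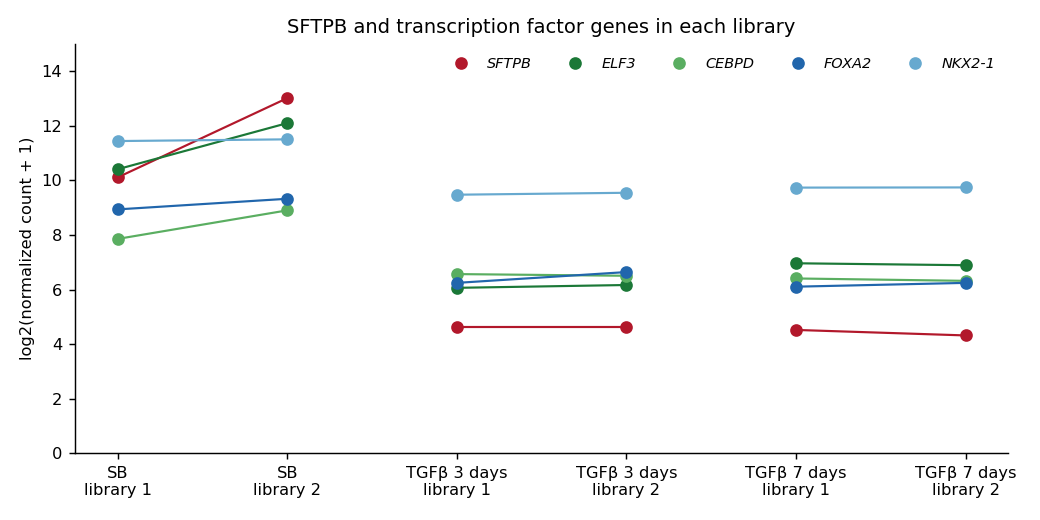
log2(normalized count + 1) of *SFTPB* and of 4 transcription factor genes in each of the 6 libraries, with lines joining the libraries of a group. All 5 genes are higher in SB than under TGFβ, and between the SB libraries *SFTPB* (gap 2.90), *ELF3* and *CEBPD* are higher in library 2, while *NKX2-1* (gap 0.06) is almost level.

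Markers of other cell types, some of which also make *LAMP3*, were measured in the same libraries. Summed over the 15 listed genes, they lay between 5679 and 5948 normalized counts in SB, between 5031 and 5665 at 3 days and between 5136 and 5591 at 7 days, and most of each sum was *CD68*, a lysosomal protein. *PTPRC*, the pan-leukocyte antigen, was at 4 normalized counts or fewer in every library, and *CD3E*, of T cells, at 1 or fewer. Of the 5 listed genes in the fit, 2 were lower and 1 higher than SB at 3 days, and 2 were lower at 7 days. *CD83*, which mature dendritic cells also carry, fell from 613 and 598 normalized counts in SB to 490 and 436 at 3 days (-0.39, SE 0.12, limma adjusted p = 0.0325), while *CCR7*, another of their markers, was at 7 or fewer. *FOXJ1*, the factor of ciliated cells, fell from 124 and 159 to 72 and 89 at 3 days and 45 and 44 at 7 days (-0.80 at 3 days, SE 0.22, limma adjusted p = 0.018), and *PECAM1*, an endothelial adhesion molecule, rose from 41 and 36 to 61 and 67 at 3 days (0.72, SE 0.24, limma adjusted p = 0.0391). These 3-day calls were near the threshold: that of *CD83* was lost with any 1 of the 6 libraries left out (-0.47 to -0.30), that of *FOXJ1* without SB library 2 (-0.62) or 3-day library 1 (-0.65), and that of *PECAM1* with any library but SB library 1 left out (0.63 to 0.79). The other listed endothelial genes, *CDH5* and *VWF*, were too low to enter the fit and were lower under TGFβ. *CDH5* was at 14 and 20 normalized counts in SB, 1 and 5 at 3 days, and 2 and 0 at 7 days. *VWF* was at 7 and 13 in SB, 5 and 6 at 3 days, and 4 and 3 at 7 days. The part of the markers of other cell types in the levels of *LAMP3* and the other surfactant and secretory genes was not tested.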

How the data were processed

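Paired reads from polyA-selected RNA of 6 libraries (3 groups of 2) were mapped to hg19 with STAR, and uniquely mapped reads were assigned to genes with HTSeq 0.6.1p1, by the authors. The annotation release is not given in the sources used here. The deposited values, recorded under the unit score, are counts normalized by library size and rounded to whole numbers by the authors, so read counts and true depths were not used; 1316 of 21293 genes were at 0 throughout. Libraries were grouped by their labels.

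The log2 of each value plus 1 was used. Genes averaging 10 or more, 14395 in all, entered a fit with limma 3.58.1 (R 4.3.3; empirical Bayes with a trend, group as the only term, 3 residual degrees of freedom), with Benjamini-Hochberg adjustment at 0.05. The authors' negative binomial test takes unnormalized read counts, so it was not run. The 10 genes and the lists were chosen with earlier results of these data known. All 10 are named, with, for each list, the genes past the threshold with the largest differences (up to 4 at 3 days and 2 between the TGFβ times), markers whose absence bears on the cell type, the 10 genes most and 5 least like the mean profile, and the 5 with the largest SB gap in each direction, of which 1 is not reported here. Counts on lists leave out the 10 genes. Positions are from GENCODE on GRCh37. In simulated data, 200 of 200 changed genes were called, and 9 unchanged genes were called among the 14380 tested. The simulation gave all genes 1 spread, taken from the TGFβ pairs, and 2-fold or 4-fold changes to genes without low counts. The real SB pair was more than 1 apart on the log2 scale in 2.76% of genes, beside 0.820% and 0.875% in the TGFβ pairs. The simulation therefore does not give the error rate of the fit to these data. Exact intervals are at 95%. Figures were drawn with matplotlib 3.10.9. Alternatives covered the pseudocount, the filter, the scaling, the trend, the libraries fitted, a replicate block and each library left out.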

Additional observations from a re-analysis of the deposited data

Results flagged for a closer look

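Levels under TGFβ differed between 3 and 7 days, by the limma test of the 7-day against the 3-day libraries with an adjusted p under 0.05, in 16 of the genes named here. Over all genes tested 33.2% passed in this comparison. Some of the genes were named because they passed it, so the count of 16 describes the choice of genes. No SB library was made at 7 days, so duration of TGFβ and time in culture cannot be told apart in this comparison. *SCGB3A2*, at 15 and 11 against 0 and 0 normalized counts, differed by -3.79 on the log2 scale, and nothing is read from its call since it entered the fit only through SB. Among the list genes the difference was -2.84 for *HOPX*, -1.90 for *AGR2*, -0.88 for *CEACAM6*, -0.66 for *LPCAT1*, -0.63 for *CAV2*, -1.01 for *EPCAM* and -0.83 for *FOXJ1*. It was 2.06 for *KCNJ15*, 1.49 for *LRP1*, 1.05 for *SOX9*, 0.87 for *SCD* and 0.73 for *CTSH*. Among the genes with a large gap between the SB libraries it was 4.10 for *DHRS3*, 2.79 for *CFB* and -4.88 for *ANKRD1*. The call was lost for *KCNJ15* without 3-day library 2 (1.70, limma adjusted p = 0.0802) or either 7-day library (2.21 and 1.91), for *FOXJ1* without 3-day library 2 (-0.68) or either 7-day library (-0.85 and -0.82), for *CAV2* without 3-day library 1 (-0.54) or 7-day library 1 (-0.60), and for *CTSH* without 3-day library 2 (0.65) or 7-day library 2 (0.63). With 2 libraries in a group, no single library could be checked as an outlier of its group.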

How the results depend on the processing

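The count of surfactant and secretory genes lower at 3 days than in SB, 8 of 8, became 5 of 10 with no filter on low values, where *SFTPD* and *SLC34A2* also entered. It became 5 of 8 with limma without the trend, and lay between 7 and 8 with each library left out in turn. *ABCA3*, *LAMP3* and *DMBT1* were the genes lost. At 7 days the count was 7 of 10 with no filter and stayed at 8 of 8 under every other alternative, and between the TGFβ times it stayed at 1. The log2 difference of *SFTPA1* between 7 and 3 days, at 5 counts or fewer, turned to -0.029 with a pseudocount of 5 and lay between -1.08 and 1.5 with each library left out; that of *NAPSA* lay between -0.50 and 0.24. The 3-day difference of *SCD* lay between -0.088 and 0.50 with each library left out. The causes were not tested. Over all genes, 4170 differed at 3 days, 2849 with no filter and 2966 without the trend; with equal library totals 1819 were higher and 2552 lower, against 2149 and 2021. Between the TGFβ times 4775 differed, 3051 with no filter and 3122 without the trend. Libraries with the same replicate number did not deviate together in all groups. Across genes, the gap of library 2 to library 1 had r = 0.208 between SB and 3 days. It had r = -0.13 between SB and 7 days and -0.647 between 3 and 7 days. The gaps at 3 and 7 days thus ran in opposite directions, which a block by replicate number cannot take up. The replicate block gave 3943, 7546 and 4485 genes in place of 4170, 7851 and 4775, and left the counts of the surfactant and secretory genes at 8, 8 and 1. With 2 libraries in a group and no read counts, differences among values of a few counts were not detectable.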
